A study of Drosophila melanogaster with 12 samples.

Results

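The RNA of 8 sugar transporter genes, *CG6484*, *Tret1-1*, *Tret1-2*, *sut1*, *sut2*, *sut3*, *sut4* and *Glut1*, was followed in whole adult *Drosophila* of both sexes with and without *bmm* overexpression. The members were chosen by gene symbol with results of these libraries in view, and *CG6484* was selected on its measured values, so its differences between groups are given as a description without a test and it is left out of the counts of calls. All 8 were found among the 17807 gene symbols of the count table. They were also among the 14246 of the CPM table, where each count is divided by a factor of its library. RNA-seq was done on 12 libraries, 3 for each of 4 groups: male *da-GAL4>UAS-bmm* (*bmm* overexpression), male *da-GAL4/+* (control), female *da-GAL4>UAS-bmm* and female *da-GAL4/+*. *bmm* encodes brummer, the main triglyceride lipase of fly lipid droplets, and *da-GAL4* is a *daughterless* driver that switches on the *UAS* transgene in nearly all tissues throughout life. All 4 groups carried the driver, came from lines backcrossed to *w1118*, ate a sucrose and yeast medium and were kept with the other sex for the first 48 hours of adult life, and each library was made from 20 flies. The age at which these flies were frozen was not given in the sources used here. Flies with *UAS-bmm* and no driver were not analysed here, so that the transgene insertion and the raised *bmm* level cannot be told apart.

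Sugar transporters of the SLC2 type are membrane proteins of the major facilitator superfamily, and they let glucose, trehalose or other sugars cross a cell's membrane down a gradient or together with protons. Insects carry trehalose, a disaccharide of glucose, as the main sugar of the haemolymph, the fluid that bathes their organs. The fat body makes it and releases it, and the glia of the blood-brain barrier, the muscles and other organs take it up. *Tret1-1* encodes a trehalose transporter and *Tret1-2* a close relative beside it in the genome. *Glut1* encodes a glucose transporter related to mammalian GLUT1. The *sut* genes (sugar transporter) were named for their sequence, and sut1 has been tied to glucose sensing in hormone cells of the gut. No function of CG6484 beyond its membership of this family is stated here.

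On the BDGP6.54 annotation, 7 of the 8 genes lie on chromosome arm 2R. *CG6484* (FBgn0034247) lies at 2R:17582007-17584012 on the minus strand, with 1 transcript of 2 exons and 1590 bases of exon. *Tret1-1* (FBgn0050035, 2R:11665768-11674782) and *Tret1-2* (FBgn0033644, 2R:11675935-11678014) follow each other on the plus strand with 1152 bases between them. *sut1* (FBgn0028563, 2R:8082976-8087151), *sut2* (FBgn0028562, 2R:8087396-8089297) and *sut3* (FBgn0028561, 2R:8089482-8091297) stand in a row with gaps of 244 and 184 bases. *sut4* (FBgn0028560, 2R:10085442-10087127) has a single exon and lies apart from them on the minus strand, and *Glut1* (FBgn0264574, 3L:914074-993788) is the only member on 3L. *sut1* shares 183 bases of exon with *slv*, which runs on the opposite strand and encodes a sugar transporter of the SWEET type. The libraries were stranded, but the strand setting of the counting was not given in the sources used here. *Tret1-1* and *Tret1-2* are paralogs, and reads that match both could have been removed by the authors' filter on mapping quality (minimum 60).

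The libraries held between 20068187 and 34799635 counts, and the floor used for detection, 3 counts, was worth 0.0798 to 0.156 CPM. *bmm* itself lay at 10619.9 to 12055 CPM in *bmm* overexpression males against 192 to 474 CPM in control males, and at 4455 to 5122 CPM in *bmm* overexpression females against 131 to 147 CPM in control females. Every library labelled as overexpression thus had more *bmm* RNA than every control of its sex. Defining marker genes stood where the labels put them. The 14 testis genes summed to between 1710 and 2134 CPM in males and to at most 2.72 CPM in females, and 24 yolk, vitelline membrane and chorion genes summed to between 60161 and 75639 CPM in females. In *bmm* overexpression males this egg list summed to at most 141 CPM, and in control males to 445 to 3581 CPM, with control replicate 1 highest. Taking the level of *bmm* overexpression females as 100%, the median of these genes was at 5.49% in male control replicate 1, and at 1.31% and 0.661% in male control replicates 2 and 3. *bmm* RNA was also highest in male control replicate 1, at 474 CPM against 234 and 192 CPM in male control replicates 2 and 3. Whether the 2 have a shared source was not tested. Results in males are therefore given with and without male control replicate 1 where it moves them.

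The change of *CG6484* with *bmm* overexpression ran in opposite directions in the 2 sexes. Male *bmm* overexpression libraries had 136, 153 and 137 CPM, and male control libraries had 167, 168 and 190.3 CPM. Female *bmm* overexpression libraries had 58.4, 67.3 and 73.6 CPM, and female control libraries had 30.7, 35.4 and 36.0 CPM. In both sexes the genotypes did not overlap, with every *bmm* overexpression male below every control male and every *bmm* overexpression female above every control female. The mean was 142 ± 9.20 CPM in *bmm* overexpression males and 175 ± 13.0 CPM in control males (SD, n = 3 each), a log2 fold change of -0.32 (SE 0.07). Females averaged 66.4 ± 7.61 CPM with *bmm* overexpression and 34.0 ± 2.88 CPM as controls (SD, n = 3 each), a log2 fold change of 0.99 (SE 0.09), or 1.99-fold. Under the alternative settings, leaving out any library included, the log2 value stayed between -0.36 and -0.26 in males and between 0.91 and 1.07 in females. Without male control replicate 1 the male value was -0.34.

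**Figure D1:**
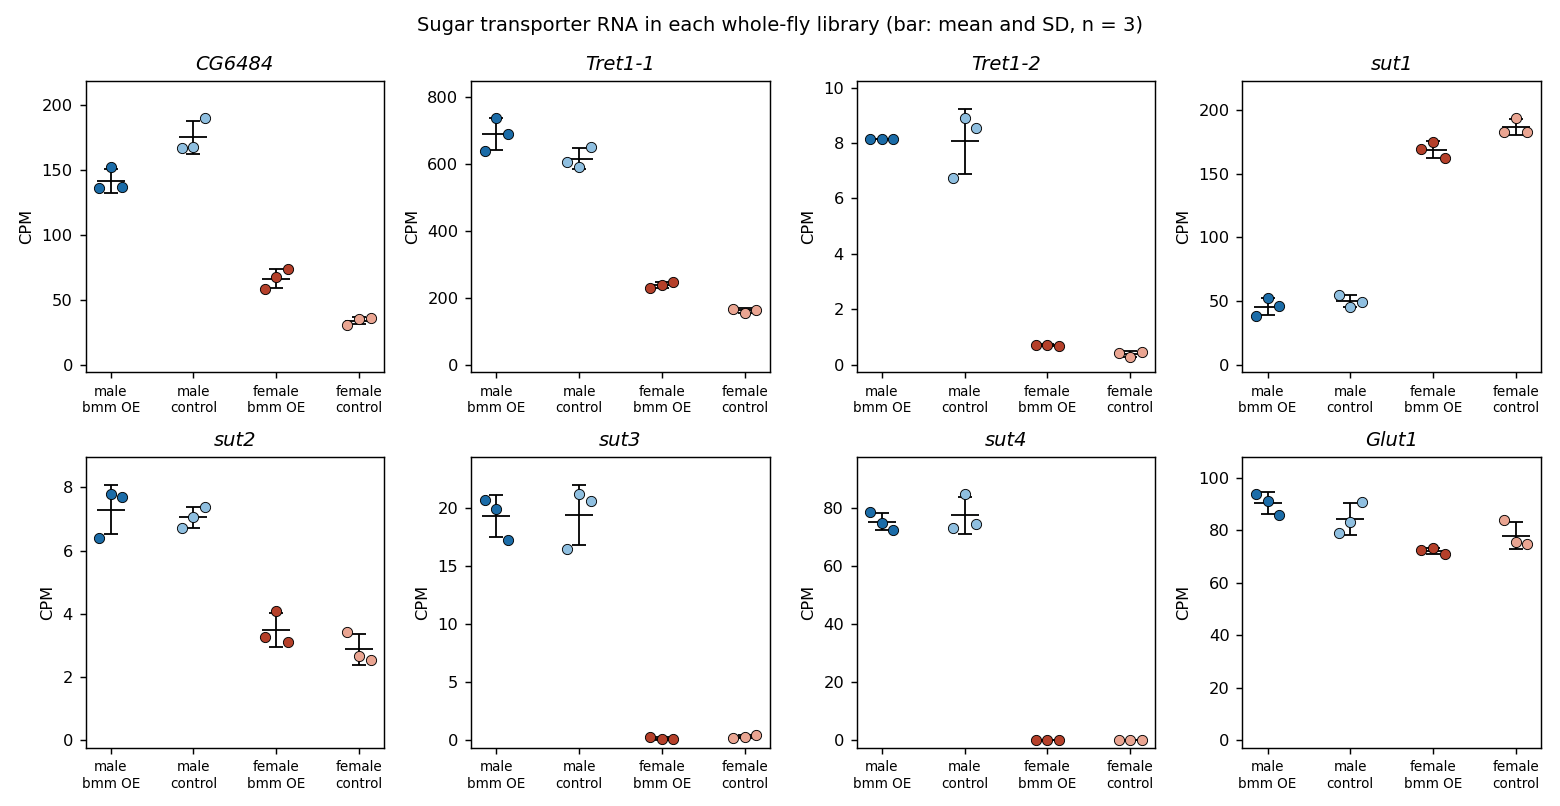
CPM of each sugar transporter gene (y axis, linear) in each of the 12 libraries, by group (x axis, OE: overexpression). Points are libraries and the bars the mean and SD of 3. *CG6484* libraries of *bmm* overexpression lay below control in males (136 to 153 against 167 to 190.3 CPM) and above control in females (58.4 to 73.6 against 30.7 to 36.0 CPM).

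*Tret1-1*, the trehalose transporter, was the most abundant member in males and rose with *bmm* overexpression in females. Its values were 229, 238 and 247 CPM in female *bmm* overexpression libraries and 168, 155 and 164 CPM in female control libraries. The groups did not overlap, and the rise was 1.50-fold (log2 0.58, SE 0.04, adjusted p = 1.2e-20 by the edgeR exact test with Benjamini-Hochberg adjustment over 10488 genes). It passed an adjusted p of 0.05 in all 15 alternative fits in females, where the log2 value lay between 0.55 and 0.62 and the highest adjusted p was 0.0278 (limma-trend). Male *bmm* overexpression libraries had 641, 738 and 690.4 CPM, and male control libraries had 608, 590.1 and 651 CPM. These overlapped, with a log2 value of 0.15 (SE 0.06, adjusted p = 0.614 by the edgeR exact test). Tret1-1 protein is known from the glia around the brain, and 7 neural and glial marker genes summed to 164 to 177 CPM in *bmm* overexpression females against 134 to 155 CPM in control females. None of these 7 was at 0, and 1 of 7 passed the same test as higher in *bmm* overexpression females, beside 14.2% of all genes. The 7 summed to 768 to 773 CPM in *bmm* overexpression males against 646 to 718 CPM in control males. There 0 of 7 passed, beside 4.31% of all genes. The part of these markers in the results on *Tret1-1* was not tested. Since RNA came from whole flies, more cells that express a gene and more RNA of it in each cell cannot be told apart, here and in every result that follows.

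*Tret1-2* was low in females, at 0.726, 0.722 and 0.656 CPM with *bmm* overexpression and 0.434, 0.279 and 0.438 CPM in controls, or 14 to 22 reads against 8 to 13 reads per library. The groups did not overlap, but the log2 value of 0.88 (SE 0.31) did not pass (adjusted p = 0.0773 by the edgeR exact test). In males, which had over 10 times as much of it, *bmm* overexpression libraries had 8.14, 8.13 and 8.13 CPM and control libraries 6.73, 8.90 and 8.54 CPM. The male groups overlapped (log2 0.01, SE 0.12, adjusted p = 1 by the edgeR exact test).

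*sut1* ran the other way from the *Tret1* genes in level, with its highest values in females. Female *bmm* overexpression libraries had 169.5, 175 and 162 CPM, and female control libraries had 183, 194 and 183 CPM. Every *bmm* overexpression female lay below every control female, but the difference was small (log2 -0.12, SE 0.04) and did not pass (adjusted p = 0.171 by the edgeR exact test). Male *bmm* overexpression libraries had 38.5, 51.9 and 45.9 CPM, and male control libraries had 54.6, 45.2 and 49.5 CPM. These overlapped (log2 -0.14, SE 0.11, adjusted p = 0.812 by the edgeR exact test). The highest male value belonged to male control replicate 1, the library with the most yolk and eggshell RNA, and without it the male log2 value was -0.06.

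*Glut1*, the glucose transporter, differed least between groups. Male *bmm* overexpression libraries had 94.0, 91.2 and 85.9 CPM, and male control libraries had 79.0, 83.4 and 90.9 CPM. Female *bmm* overexpression libraries had 72.4, 73.2 and 71.1 CPM, and female control libraries had 83.9, 75.4 and 74.7 CPM. The female genotypes separated by a narrow gap, with *bmm* overexpression lower, while the male genotypes overlapped. Neither log2 value passed the edgeR exact test, at 0.09 (SE 0.06, adjusted p = 0.866) in males and -0.08 (SE 0.05, adjusted p = 0.457) in females.

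The other *sut* genes gave no call with genotype. *sut2* had 6.39, 7.80 and 7.70 CPM in *bmm* overexpression males and 6.70, 7.07 and 7.37 CPM in control males (log2 0.04, SE 0.12, adjusted p = 0.993 by the edgeR exact test). It had 3.27, 4.10 and 3.12 CPM in *bmm* overexpression females and 3.44, 2.68 and 2.53 CPM in control females (log2 0.31, SE 0.18, adjusted p = 0.309 by the edgeR exact test). Both pairs overlapped. *sut3* had 20.7, 20.0 and 17.3 CPM in *bmm* overexpression males and 16.5, 21.3 and 20.6 CPM in control males (log2 -0.02, SE 0.11, adjusted p = 1 by the edgeR exact test). *sut4* had 78.3, 74.6 and 72.4 CPM in *bmm* overexpression males and 73.1, 84.7 and 74.3 CPM in control males (log2 -0.05, SE 0.07, adjusted p = 0.958 by the edgeR exact test). For both genes the male genotypes overlapped, and neither entered the female test because of its low counts there.

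The calls were counted over the 7 members other than *CG6484*. In males 0 of 7 passed both of the study's thresholds (adjusted p under 0.05 with a change of more than 1 on the log2 scale either way), where 1.50% of 13632 genes did. At the adjusted p alone the count was again 0 of 7, beside 4.31% of all genes, and 0 of 7 had an unadjusted p under 0.05 in the edgeR exact test. DESeq2 and limma-trend also gave 0 of 7 in males at the adjusted p. At the unadjusted p they gave 1 of 7, as did the edgeR quasi-likelihood test. In females 5 of these members entered the test and 0 of them passed both thresholds, at the adjusted or the unadjusted p, where 1.41% of 10488 genes did. At the adjusted p alone 1 of 5 passed (*Tret1-1*), beside 14.2% of all genes, and at the adjusted p both counts in females were the same in every alternative run. The libraries of the 2 genotypes overlapped for all 7 in males, where they did not for 22.4% of 14246 genes. In females they did not overlap for 4 of 7, with *Tret1-1* and *Tret1-2* higher and *sut1* and *Glut1* lower, beside 27.3% of 14246 genes. The median log2 value of these members was 0.01 in males (7 tested) and 0.31 in females (5 tested), where that of all genes was -0.01 in each sex.

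**Figure D2:**
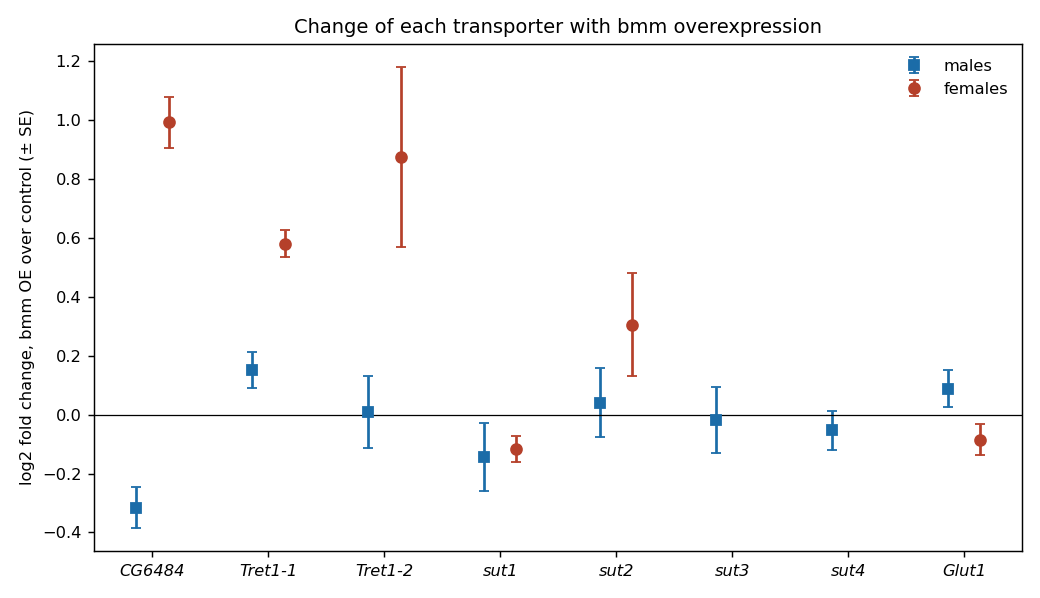
Log2 fold change of *bmm* overexpression (OE) over control for each transporter gene (y axis, ± SE from the quasi-likelihood fit, 3 libraries per group), squares for males and circles for females. *CG6484* stood at -0.32 in males and 0.99 in females, and *sut3* and *sut4* have no female point because of low counts.

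A difference between male and female responses to *bmm* overexpression was tested over all 12 libraries with the edgeR quasi-likelihood test. The male response minus the female response was negative for *Tret1-1*, at -0.47 (SE 0.08, adjusted p = 0.0136), but this call was lost when any 1 of the 6 female libraries was left out, with values between -0.42 and -0.37 and adjusted p between 0.0540 and 0.104. For *CG6484* it was -1.34 (SE 0.12), given without a test, and it stayed between -1.38 and -1.20 over all alternatives. *Tret1-2* had -0.90 (SE 0.27) and did not pass (adjusted p = 0.0961). The other 5 members had adjusted p of 0.355 or more, *sut3* the lowest of them. Over the members other than *CG6484* 1 of 7 passed, beside 2.91% of 13988 genes, and 0 of 7 without any 1 of the female libraries. *sut3* and *sut4* are among the 7, although they entered this fit through the male libraries only. Their female response rests on few reads, so their values here cannot decide whether the sexes differ.

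Most members differed between the sexes. In a typical gene of these libraries the male level was higher too: over 13988 genes the median male minus female log2 difference was 0.43 under *bmm* overexpression and 0.54 in controls, and it was 0.69 and 0.81 when scaled by library size only, so that a sex difference is read beside that shift. Under *bmm* overexpression 6 of the 7 members other than *CG6484* were higher in males, beside 51.7% of all genes, and 1 of 7 was lower in males, beside 39.8% (edgeR quasi-likelihood test, adjusted p under 0.05). In controls 5 of 7 were higher in males, beside 53.6% of all genes, and 1 of 7 was lower in males, beside 38.9%. Among the 7, *sut3* and *sut4* had too few reads to enter the female test and came into this fit through the male libraries. Their calls as higher in males follow from that filter and are a description only. They are also among the 7 members of the test of responses above. These shares of all genes show how many genes differ between whole males and whole females. The 24 egg genes and 14 testis genes all passed in controls, and so did 7 of 7 neural and glial genes (higher in males). Of 16 midgut genes, 12 passed as lower and 2 as higher in males in controls. The part of such differences in make-up was not tested.

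For *CG6484*, chosen on its values in these groups, the sexes are set side by side without a test. Males had 2.03 times the female level under *bmm* overexpression (log2 1.02, SE 0.08) and 5.15 times the female level in controls (log2 2.37, SE 0.09). For *Tret1-1* the male level was 2.75 times the female level under *bmm* overexpression (log2 1.46, SE 0.06) and 3.80 times in controls (log2 1.93, SE 0.06). *Tret1-2* was 11.0 times higher in males under *bmm* overexpression (log2 3.46, SE 0.16) and 20.7 times higher in male controls (log2 4.37, SE 0.17). All 4 of these values for the *Tret1* genes passed (highest adjusted p = 3.0e-10, edgeR quasi-likelihood test).

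*sut1* was the member lower in males, at log2 -1.97 (SE 0.10) under *bmm* overexpression and -1.90 (SE 0.10) in controls, with an adjusted p of at most 9.2e-10 in the edgeR quasi-likelihood test. Its neighbour *sut2* went the other way, at log2 0.99 (SE 0.14) under *bmm* overexpression and 1.29 (SE 0.14) in controls, with an adjusted p of at most 1.6e-05 in the same test. *Glut1* had a male minus female log2 difference of 0.25 (SE 0.06, adjusted p = 0.00201, edgeR quasi-likelihood test) under *bmm* overexpression and of 0.11 (SE 0.06, adjusted p = 0.0939) in controls. The control value of *Glut1* depended on the scaling: it passed at 0.26 with DESeq2, 0.26 with RLE factors and 0.38 with library size only.

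*sut3* and *sut4* were close to absent from females. *sut4* gave 7025 reads in *bmm* overexpression males against 2 in *bmm* overexpression females, and 7121 reads in control males against 3 in control females. By the library factors of the CPM, the male level was 3011 times the female level under *bmm* overexpression (95% exact interval 833 to 24872). In controls it was 2263 times the female level (774 to 10974), and the intervals cover counting error only. *sut3* gave 1808 reads in *bmm* overexpression males against 11 in *bmm* overexpression females, a ratio of 141 (78.6 to 283), and 1773 reads in control males against 27 in control females, a ratio of 62.6 (42.9 to 95.3). With 0 to 2 reads of *sut4* in each female library, its female level was under the limit of 3 counts in all 6. The difference in sex between *sut3*, which sits 184 bases from *sut2*, and *sut2* itself is thus large (log2 7.02 against 0.99 under *bmm* overexpression and 5.97 against 1.29 in controls), although the fitted values of *sut3* and *sut4* depend on the prior count.

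Levels were compared between genes as CPM per kilobase of exon. In *bmm* overexpression males the order was *Tret1-1* (204 ± 14.4), *CG6484* (89.3 ± 5.79), *sut4* (44.6 ± 1.78), *sut1* (18.8 ± 2.78), *sut3* (12.1 ± 1.14), *Glut1* (8.26 ± 0.375), *Tret1-2* (4.80 ± 0.00350) and *sut2* (4.54 ± 0.490, SD, n = 3 libraries each). Control males had the same order, with *Tret1-1* at 183 ± 9.27 and *CG6484* at 110.2 ± 8.18 CPM per kilobase (SD, n = 3). In both groups of males only the last neighbours, *Tret1-2* and *sut2*, overlapped between libraries. The order in females was another one, since *sut1* stood near or at its head.

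In *bmm* overexpression females *Tret1-1* (70.6 ± 2.68 CPM per kilobase) and *sut1* (70.0 ± 2.64) overlapped at the head (SD, n = 3 libraries each), followed by *CG6484* at 41.8 ± 4.78, *Glut1* at 6.61 ± 0.0997 and *sut2* at 2.17 ± 0.330. In control females *sut1* stood alone at the head with 77.3 ± 2.54 CPM per kilobase, above *Tret1-1* at 48.1 ± 1.88, *CG6484* at 21.4 ± 1.81, *Glut1* at 7.14 ± 0.469 and *sut2* at 1.79 ± 0.305 (SD, n = 3 each). *Tret1-2*, *sut3* and *sut4* stayed at or under 0.428 CPM per kilobase in each female library. The level of *Glut1* per kilobase rests on an exon union of 10933 bases over 20 transcripts, which spreads its reads over more sequence than any 1 transcript may hold.

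Summed over the 8 members, males held 387 ± 21.9 CPM per kilobase with *bmm* overexpression and 388 ± 17.1 in controls, and females held 192 ± 6.44 with *bmm* overexpression and 156 ± 1.21 in controls (SD, n = 3 each). Of these sums, *CG6484* made up 23.1 ± 0.401% in *bmm* overexpression males against 28.4 ± 0.844% in control males, and 21.8 ± 1.85% in *bmm* overexpression females against 13.7 ± 1.08% in control females. *sut1* made up 36.5 ± 1.97% in *bmm* overexpression females against 49.5 ± 1.29% in control females. A share falls when other members rise, and the CPM of *sut1* itself moved much less than its share.

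**Figure D3:**
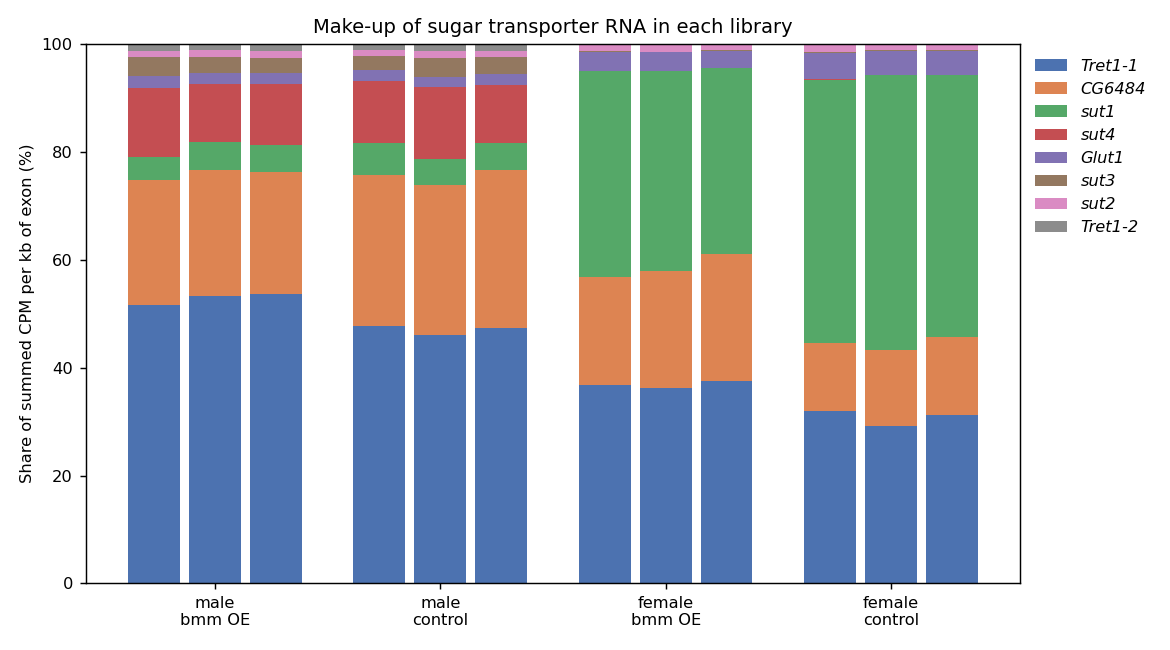
Share of each member in the summed CPM per kilobase of exon of the 8 transporter genes (y axis, %, stacked to 100) in each of the 12 libraries (bars, 3 per group, OE: overexpression). *sut1* took 49.5% on average in control females and 5.32% in control males, and *sut4* took 11.8% in control males and 0.0129% in control females.

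The rest of the family was described with a list of 20 other SLC2-like genes. In males 6 of 20 were higher with *bmm* overexpression and 0 lower, and in females 10 of 18 tested were higher and 0 lower (edgeR exact test, adjusted p under 0.05), beside the 4.31% of male and 14.2% of female tests that passed over all genes in either direction. The list's median log2 value was 0.06 in males and 0.40 in females, while that of all genes was -0.01 in each sex. None of the 20 passed the threshold of 2-fold. The female count lay between 2 (limma-trend) and 10 over the alternatives, and the male count between 3 and 7, with 3 left without male *bmm* overexpression replicate 1 or 2 or male control replicate 1. In males 1 gene was lower without male control replicate 2 and in 1 fit over 12 libraries.

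*CG7882* had the largest rise in females among them. It had 88.7, 89.5 and 84.7 CPM in *bmm* overexpression females against 51.5, 47.4 and 52.9 CPM in control females (log2 0.82, adjusted p = 2.8e-27 by the edgeR exact test). In males it had 172, 169 and 155 CPM with *bmm* overexpression against 125, 135 and 138 CPM in controls (log2 0.31, adjusted p = 0.0372 by the edgeR exact test). The genotypes of neither sex overlapped. *CG1208* (log2 0.77), *CG14606* (0.74), *CG8837* (0.62), *CG6901* (0.58), *CG15408* (0.52), *CG4607* (0.51) and *CG15406* (0.26) also passed as higher in *bmm* overexpression females. So did *CG1213* (0.49) and *CG8249* (0.48), named after their values were seen. Of 15 alternatives in females, *CG7882* and *CG1213* each passed in 15 and *CG8249* in 9. *CG6901* passed in 4 and *CG15406*, whose female genotypes overlapped, in 6. The call of *CG6901* was lost without any 1 female library other than *bmm* overexpression replicate 3, and that of *CG15406* without female *bmm* overexpression replicate 1 or 2 or female control replicate 2 or 3. With limma-trend the calls of *CG1208*, *CG14606*, *CG8837*, *CG15408*, *CG4607* and *CG8249* were lost as well.

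In males the largest rise belonged to *CG33282*, with 19.5, 19.2 and 18.2 CPM in *bmm* overexpression males against 8.16, 8.97 and 13.0 CPM in control males (log2 0.91, adjusted p = 3.6e-05 by the edgeR exact test). *CG15406* (log2 0.55), *CG3285* (0.53), *CG8837* (0.40) and *CG15408* (0.37) passed with it. Without male control replicate 1 the male calls of *CG7882*, *CG8837* and *CG15408* were lost, as they were without male *bmm* overexpression replicate 1 or 2. That of *CG7882* was also lost without male control replicate 2, and that of *CG15408* without male *bmm* overexpression replicate 3. *CG1208* and *CG6901* had negative values in males (-0.30, adjusted p = 0.226, and -0.69, adjusted p = 0.131, edgeR exact test). The difference between the male and the female response passed as negative for 5 of 20 genes of the list in the edgeR quasi-likelihood test: *CG6901* (-1.31), *CG1208* (-1.11), *CG7882* (-0.55), *CG4607* (-0.54) and *CG1213* (-0.58), the last named after its value was seen. That count lay beside 2.91% of all genes, and it was 1 without female control replicate 1 or 2, 2 without female *bmm* overexpression replicate 2 and 3 without female *bmm* overexpression replicate 1 or 3.

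**Figure D4:**
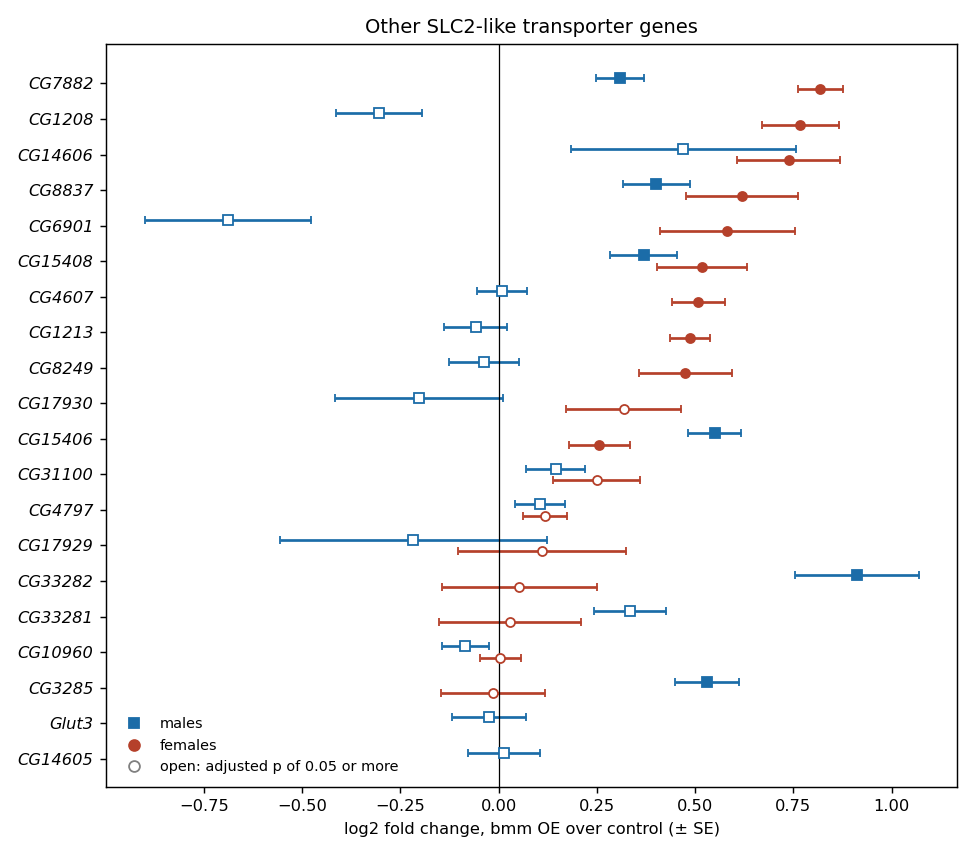
Log2 fold change of *bmm* overexpression (OE) over control (x axis, ± SE) for 20 other SLC2-like genes (rows), squares for males above circles for females, filled where the adjusted p of the edgeR exact test was under 0.05. In females 10 of 18 genes are filled to the right of 0, with *CG7882* at 0.82, and in males 6 of 20, with *CG33282* at 0.91.

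2 genes of this list, *Glut3* and *CG14605*, had 0 reads in all 6 female libraries, a pattern like that of *sut4*, and are named after their values were seen. *Glut3*, which is known from the testis, gave 1862 reads in *bmm* overexpression males and 1842 in control males, at least 532-fold and at least 585-fold higher than 3 counts over the female group of the same genotype. *CG14605* gave 3392 and 3278 reads in these groups, at least 969-fold and at least 1042-fold higher on the same floor. Among 6 sugar transporters of other families, 2 were higher with *bmm* overexpression in males, beside the 4.31% of all genes that passed in either direction. The count was 1 without male control replicate 1 or with a replicate block, and 0 without male *bmm* overexpression replicate 2 or 3 or male control replicate 2. In females 0 of 6 passed in the edgeR exact test or in any alternative run, DESeq2 and limma-trend included, and 0 had an unadjusted p under 0.05 in the exact test. The pair in males were *SLC5A11* (also *cupcake*), a cotransporter-like gene tied to the choice of nutritive sugar in hungry flies, at log2 0.40 (adjusted p = 0.00399), and *CG42235* (*kumpel*), at log2 0.36 (adjusted p = 0.0195), both by the edgeR exact test.

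Genes of sugar handling were described with a list of 34, most of them enzymes, with a hormone gene and regulators of transcription among them. In females 15 of 32 tested were higher with *bmm* overexpression and 0 lower, and in males 1 of 34 was higher and 3 lower (edgeR exact test, adjusted p under 0.05), beside 14.2% of all genes in females and 4.31% in males. The female count was 5 with limma-trend, and the male count of lower genes was 11 with DESeq2 and 8 without male control replicate 2. The median log2 value was -0.07 in males and 0.22 in females. The 8 genes with the largest change in either sex were *Amyrel*, an amylase relative, and 7 maltases, gut enzymes that split sugars such as maltose and sucrose. *Mal-A8* (1.09), *Mal-B1* (1.07), *Mal-A7* (1.07), *Mal-A6* (0.94), *Mal-A1* (0.73), *Mal-A4* (0.63) and *Mal-A2* (0.53) all rose in *bmm* overexpression females. 2 more maltases, *Mal-A3* (0.62) and *Mal-B2* (0.56), also passed as higher there and are named after their values were seen. *Mal-A5*, the other maltase of the list and named likewise, did not pass in females (log2 -0.13, adjusted p = 0.0844 by the edgeR exact test). Its level in every *bmm* overexpression female library lay below that in every control female library. With limma-trend the female calls of *Mal-B1*, *Mal-A4*, *Mal-A2*, *Mal-A3* and *Mal-B2* were lost. In males *Mal-B1* rose (log2 1.06, adjusted p = 2.6e-18 by the edgeR exact test), while *Amyrel* fell by 1.62 on the log2 scale, *Mal-A2* by 0.63 and *Mal-A1* by 0.50. The male call of *Mal-A2* was lost with the replicate block. *Amyrel* passed as higher in *bmm* overexpression females (log2 0.53, adjusted p = 0.0414 by the edgeR exact test), but in 3 of 15 alternatives only, and it was lost without any 1 female library other than *bmm* overexpression replicate 3.

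Some midgut marker genes also changed with genotype. The 16 genes summed to 2869 to 2933 CPM in *bmm* overexpression males against 2861 to 3199 CPM in control males, and to 7561 to 9862 CPM in *bmm* overexpression females against 9213 to 9918 CPM in control females. In males 5 of 16 passed as lower and 2 as higher (median log2 -0.28), beside 4.31% of all genes in either direction. In females 3 passed as lower and 1 as higher (median log2 -0.06, edgeR exact test), beside 14.2% of all genes. None of the 16 was at 0, and their part in the results on maltases was not tested. The male response minus the female response passed as negative for 11 of the 34 sugar handling genes (edgeR quasi-likelihood test), beside 2.91% of all genes. That count was 5 without female control replicate 2, and 6 without female *bmm* overexpression replicate 1 or 2, female control replicate 1 or 3 or male *bmm* overexpression replicate 1.

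The genes whose level was most like that of *CG6484* were sought over all 12 libraries by Pearson's r of log2(CPM + 1), among 12064 genes with a mean of at least 1 CPM. They were *CG4363* (r = 0.996), *Mal-A6* (0.996), *Mal-A8* (0.992), *CG7367* (0.991) and *CG11658* (0.991). The 12 points form 4 groups, so that r mostly repeats the differences between group means and is given as a description. *Mal-A6* had 351, 398 and 341 CPM in *bmm* overexpression males against 437, 408 and 472 CPM in control males, and 194, 204 and 207 CPM in *bmm* overexpression females against 99.5, 102 and 119 CPM in control females. As with *CG6484*, the genotypes separated downward in males and upward in females. Its log2 values were -0.28 in males and 0.94 in females, and for the genes picked by this likeness they are given without a test.

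*Mal-A8* had 147, 166 and 164 CPM in *bmm* overexpression males against 199, 164 and 223 CPM in control males, which overlapped, and 53.2, 53.5 and 49.0 CPM in *bmm* overexpression females against 23.0, 25.0 and 26.6 CPM in control females, which did not. *CG4363* had a log2 value of -0.25 in males and of 1.25 in females. With each group's mean taken off, the genes most like *CG6484* were others: *Irk2*, a potassium channel (r = 0.940), *Pcmt*, a protein repair methyltransferase (0.898), *CG32280* (0.895), *sog*, an extracellular antagonist of BMP signals (0.890), and *CG9812* (0.887). These 5 are the highest of 12064 genes on what is left of 3 libraries per group, so their r is a description too and was not tested. None of these 5 passed with genotype in either sex (lowest adjusted p = 0.0901, edgeR exact test). Within the set, *CG6484* had r = 0.969 with *Tret1-1*, -0.923 with *sut1* and 0.601 with *Glut1* over the same 12 libraries.

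**Figure D5:**
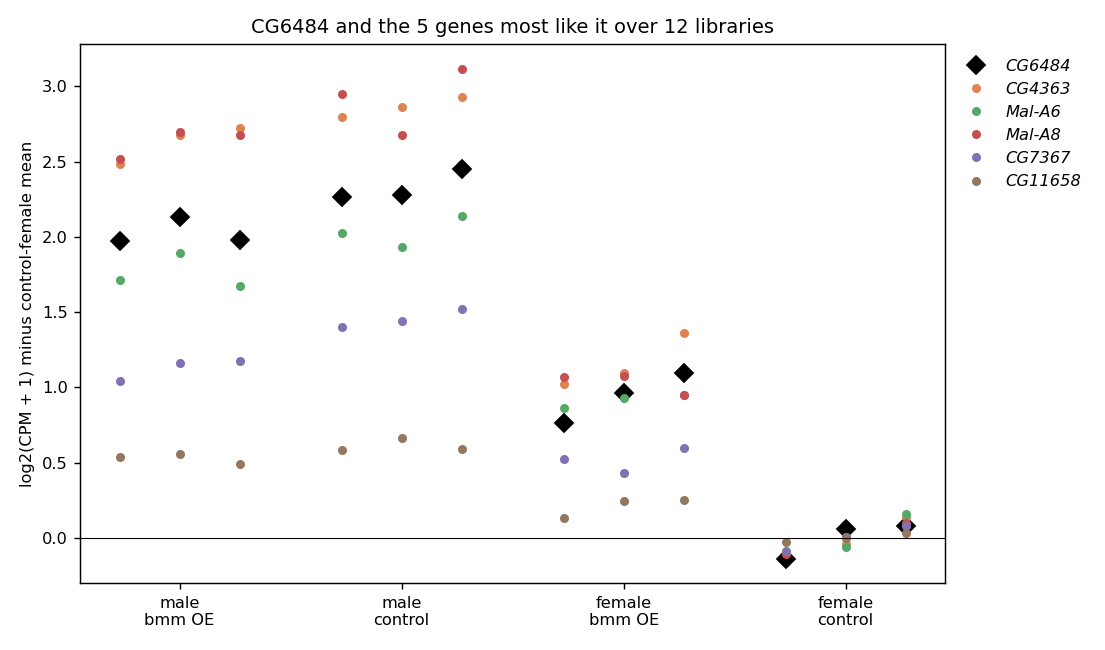
Log2(CPM + 1) minus the mean of the 3 control females (y axis) in each of the 12 libraries (x axis, by group, OE: overexpression) for *CG6484* (diamonds) and the 5 genes with the highest r to it (circles). *CG6484* and *Mal-A6* both lie lower in *bmm* overexpression than in control males and higher in *bmm* overexpression than in control females.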

How the data were processed

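Groups were taken from the sample labels. Raw whole-number counts by gene symbol were deposited by the authors from stranded mRNA libraries aligned to BDGP6.28 with HISAT2, filtered for a mapping quality of 60 and counted with featureCounts. Tool versions were not given in the sources used here. A second deposited table held a signal named CPM, each count divided by a factor of its library. Counts were used for all tests and CPM for levels. The members, lists and tests were chosen with earlier results of these data known.

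Each sex was tested with the edgeR exact test (edgeR 4.0.16, R 4.3.3, TMM, filterByExpr), with Benjamini-Hochberg adjustment over all genes tested. A gene passed at an adjusted p under 0.05, and the study further asks for a change over 1 on the log2 scale. The quasi-likelihood fit gave the standard errors. Sex differences and the interaction used the edgeR quasi-likelihood test over 12 libraries. Alternatives were that test in each sex, DESeq2 1.42.0, limma-trend (limma 3.58.1, pseudocounts of 1 and 0.1), library size or RLE scaling, no filter, 1 fit over 12 libraries, a replicate block, subtraction of female RNA from male libraries and leaving out each library. The edgeR tests were checked on simulated data.

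Of genes outside the set, the text names at most 10 of the SLC2-like list and 8 of the sugar handling list, by largest log2 fold change among those past adjusted p 0.05 in either sex, those of the other families that passed, and the 5 genes most like *CG6484* by each measure. *CG1213*, *CG8249*, *Glut3*, *CG14605*, *CG33281*, *Mal-A3*, *Mal-A5*, *Mal-B2* and *Fign* were named outside this rule, after their values were seen. Exon lengths and positions came from the BDGP6.54 annotation, matched by symbol. Deviations of same-numbered libraries had correlations of 0.241, 0.154 and 0.333 in females and of -0.0297, 0.0952 and -0.0349 in males. Across the sexes they lay between -0.145 and -0.0196. Libraries of unlike number were not compared and no labels state what a number shares, so no pairing is taken from it. The replicate block, which in the fit over 12 libraries gave both sexes the same effect per number, was an alternative only. Libraries of a group differed by more than sampling noise (chi-square per degree of freedom 9.91 to 32.6). The labels call the libraries of a group biological replicates but do not say whether they came from separate cultures. The p-values therefore set a difference against variation between these libraries only.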

Additional observations from a re-analysis of the deposited data

Results flagged for a closer look

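The response of *Tret1-1* to *bmm* overexpression differed between the sexes: the male log2 response minus the female one was -0.468 in the edgeR quasi-likelihood test over 12 libraries (adjusted p = 0.0136), and the call was lost without any 1 of the female libraries. For *CG6484* the same difference was -1.34, and its libraries separated downward in *bmm* overexpression males and upward in *bmm* overexpression females. No test of the difference in *CG6484* is given, because the gene was chosen with these values in view, and nothing is read from its place in the fit across all genes.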

How the results depend on the processing

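The female rise of *Tret1-1* passed under every alternative run. Counts of members here are again over the 7 other than *CG6484*. Of these, none other than *Tret1-1* passed with genotype or in the interaction under any alternative (*Tret1-2* had no adjusted p in females with DESeq2). In either sex 0 of 7 passed both thresholds under every alternative. At the adjusted p alone the count stayed at 1 in females and 0 in males. The interaction count was 1, and 0 with any 1 of the female libraries left out. Values near 0 changed sign: *Tret1-2* in males was -0.0121 with library size only, -0.0237 in 1 fit over 12 libraries and -0.0256 with female RNA subtracted, the *sut1* interaction was 0.0094 with limma-trend and 0.0222 with female RNA subtracted, and the *sut4* interaction was -0.0229 with limma-trend. With a library left out, *Tret1-2* in males lay between -0.103 and 0.0815, *sut2* between -0.0052 and 0.125, *sut3* between -0.119 and 0.0547 and *sut4* between -0.0868 and 0.0119, and the interaction lay between -0.153 and 0.0482 for *sut1* and between -0.50 and 3.10 for *sut4*. The cause was not tested.

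The replicate block changed no call of a member, with *Tret1-1* in females at 0.58 (adjusted p = 1.2e-05, edgeR). Over all genes, calls at the adjusted p alone in females numbered 2149 with the block, 1491 in the exact test, 779 in 1 fit over 12 libraries and 129 to 145 with limma-trend. In males they numbered 587 in the exact test, 253 in the quasi-likelihood test, 272 with the block and 251 to 305 with limma-trend. Past both thresholds, males gave 205 calls in the exact test, 120 with the block, 115 with female RNA subtracted, 59 in the quasi-likelihood test and 36 to 75 with limma-trend, and females gave 148 in the exact test and 19 to 24 with limma-trend. The interaction gave 407 calls, 744 with DESeq2, 255 with the block and 247 with limma-trend. Higher calls made up 68.95% in females, and 79.14% with library size only. They made up 9.83% in the interaction, 22.06% with RLE factors and 24.46% with DESeq2.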

Other observations

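6 SLC2-like genes lie within 2L:3309222-3334790 on the plus strand, in the order *CG15406*, *CG8837*, *CG33281*, *CG33282*, *CG3285* and *CG15408*, with *Fign* between the first and second on the opposite strand. The run was singled out after its values were seen. In males all 6 had every *bmm* overexpression library above every control library, where 22.4% of 14246 genes separated in either direction. By the edgeR exact test 5 of the 6 passed (log2 0.37 to 0.91), beside 4.31% of all genes, while *CG33281* had 0.33 (adjusted p = 0.106). Since the run was picked on these values, its counts cannot be weighed against those shares. *Fign* had -0.30 (adjusted p = 0.766). *CG15406*, *CG3285* and *CG33282* passed in all 16 alternatives in males, *CG8837* in 8, *CG15408* in 7 and *CG33281* in 1.

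In females 3 of the 6 passed as higher with *bmm* overexpression, beside 14.2% of all genes in either direction. They were *CG8837*, *CG15408* and *CG15406* (in 13, 13 and 6 of 15 alternatives, with the genotypes of *CG15406* overlapping). *CG33281*, *CG33282* and *CG3285* had log2 values of 0.03, 0.05 and -0.01. *CG3285* had 55.6, 62.6 and 59.9 CPM in *bmm* overexpression males against 38.9, 37.6 and 45.8 CPM in control males, and 13.5, 13.7 and 10.4 CPM in *bmm* overexpression females against 15.0, 11.7 and 12.0 CPM in control females. For these 3 genes the difference between the sexes in response did not pass the edgeR quasi-likelihood test, at 0.51 for *CG3285* (adjusted p = 0.128), 0.84 for *CG33282* (adjusted p = 0.136) and 0.28 for *CG33281* (adjusted p = 0.604). *CG3285* and *CG15408* overlap in position on the same strand, so that reads of 1 may count towards the other.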
